A study of Mus musculus with 4 samples.

Results

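Sparcl1 and 9 other genes of matricellular glycoproteins, Sparc, Smoc1, Smoc2, Spock1, Spock3, Fstl1, Tnc, Postn and Spon1, were followed in dermal papilla cells with and without Sox2. They are 10 of the 19938 genes that the arrays measured, and each is represented by 1 probe set that names it alone. The genes were chosen by family, around Sparcl1, after the difference of Sparcl1 between these same arrays was known. Their differences are therefore a description and are not offered as a test. The cKO group held 2 arrays of dermal papilla cells from skin of mice with a conditional knockout of the transcription factor gene Sox2, and the Het group held 2 arrays of the same cells from mice heterozygous for Sox2. Mice of both groups were at postnatal day 5. Cells of both groups were sorted for a green fluorescent reporter of Sox2 and for the surface receptor integrin alpha 9. The Het mice are thus not wild type. What drove the deletion, and whether each sample pooled several animals, is not given in the sources used here.

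Matricellular proteins are secreted into the extracellular matrix, where they tune how cells attach and respond to growth factors more than they bear load. The SPARC family shares a follistatin-like and a calcium-binding region and comprises Sparc, Sparcl1 (also called hevin), the SMOC proteins, the testicans encoded by the Spock genes, and Fstl1. Tenascin C, periostin and F-spondin, encoded by Tnc, Postn and Spon1, belong to other families with similar matrix roles. The dermal papilla is a cluster of mesenchymal cells, rich in matrix, that signals to the hair matrix above it.

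Values are log2 RMA values relative to the median of the 4 arrays for each probe set, so they compare arrays and hold no level. Whether a gene was detected, or was higher than another gene, cannot be read from them. With 4 arrays, this centring places the middle 2 arrays of each probe set at equal distances above and below 0. Labels did not say whether replicates came from separate litters or pools, and the error of each value rests on 2 arrays per group. In bulk samples, fewer cells of a type and less RNA per cell cannot be told apart. Sox2 stood at -0.87 and -0.94 in the cKO arrays and at 0.96 and 0.87 in the Het arrays and was thus lower in both cKO arrays. It was not examined whether that probe set covers the deletion. The arrays also differed in sex-linked genes. Xist, which is expressed from the inactive X chromosome, stood at 0.85 and 1.23 in the cKO arrays and at -4.08 and -0.85 in the Het arrays, a difference of 3.51 that was 1.90 without Het replicate 1, and 3 Y-linked genes (Eif2s3y, Kdm5d and Uty) had both cKO arrays below both Het arrays. The part of these sex-linked differences in the results below was not tested.

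Promoter sequences, from 250 bases before to 50 after a gene's start, were held for 6 of the 10 genes in RefSeq tables of build GRCm38.p6. None was held for Sparcl1, Smoc1, Smoc2 and Spon1, so the promoter of Sparcl1 was not searched. Those of Sparc and Spock3, which had the largest negative differences after Sparcl1, and of Spock1, which had the largest positive one, are shown 5′ to 3′ along the gene's strand. Capitals mark 6-base matches to ACAATG or ACAAAG, 2 forms of the sequence bound by SOX proteins, on either strand. The Sparc window lies at chr11:55420031-55420330 on the minus strand, the Spock3 window shown at chr8:62950982-62951281 on the plus strand and the Spock1 window at chr13:57908283-57908582 on the minus strand. Spock3 had another window, at chr8:62951095-62951394, which held no match and is not shown.
Sparc: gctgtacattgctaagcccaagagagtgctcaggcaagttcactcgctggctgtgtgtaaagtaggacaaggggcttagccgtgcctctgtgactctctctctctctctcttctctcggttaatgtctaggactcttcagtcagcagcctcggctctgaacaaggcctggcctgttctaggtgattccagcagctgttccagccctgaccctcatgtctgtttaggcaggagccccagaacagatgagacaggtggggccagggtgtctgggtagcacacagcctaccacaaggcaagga
Spock3: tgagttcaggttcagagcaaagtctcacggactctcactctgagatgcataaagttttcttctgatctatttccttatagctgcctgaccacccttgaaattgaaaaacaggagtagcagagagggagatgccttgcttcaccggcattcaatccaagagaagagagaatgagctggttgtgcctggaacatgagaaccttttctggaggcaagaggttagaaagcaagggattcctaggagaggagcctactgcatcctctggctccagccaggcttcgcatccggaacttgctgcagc
Spock1: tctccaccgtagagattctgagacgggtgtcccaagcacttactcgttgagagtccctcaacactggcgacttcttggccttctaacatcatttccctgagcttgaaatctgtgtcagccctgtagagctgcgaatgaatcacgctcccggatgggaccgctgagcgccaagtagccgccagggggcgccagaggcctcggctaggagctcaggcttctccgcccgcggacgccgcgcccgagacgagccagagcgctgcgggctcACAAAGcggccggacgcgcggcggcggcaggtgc

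A match was present in 1 of the 9 windows of these 6 genes, that of Spock1, where it reads ACAAAG on the gene's own strand. Over all 32851 promoter windows of the table, 12.6% held ACAATG, 18.7% held ACAAAG and 28.6% held either. A match describes the letters only, and its absence says only that these letters are not in the window. The windows of Sparc and Spock3, 2 of the genes with lower mean values in cKO, held none.

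Sparcl1, whose product is an anti-adhesive matrix protein best known from astrocytes, which secrete it to organise synapses, was lower in both cKO arrays by about 2-fold. It stood at -0.52 and -0.46 in cKO replicates 1 and 2, against 0.84 and 0.46 in Het replicates 1 and 2. Both cKO arrays lay close together and well below both Het arrays, and the groups did not overlap. The mean was -0.49 ± 0.04 in cKO and 0.65 ± 0.26 in Het (SD, n = 2 each), and the difference, cKO minus Het, was -1.14 ± 0.15 (SE of the limma fit across all genes), a 2.20-fold lower value. The 4 pairings of a single cKO array with a single Het array gave differences between -1.36 and -0.92, that is, from 1.90-fold to 2.56-fold lower. The spread came mainly from the Het arrays, which were 0.37 apart, while the cKO arrays were 0.06 apart. Sparcl1 was at least 2-fold lower with separated groups, as were 0.115% of all genes, and it ranked 18th of 19938 genes by how far it was lower in cKO. These values chose the gene and are not a test of it.

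**Figure D1:**
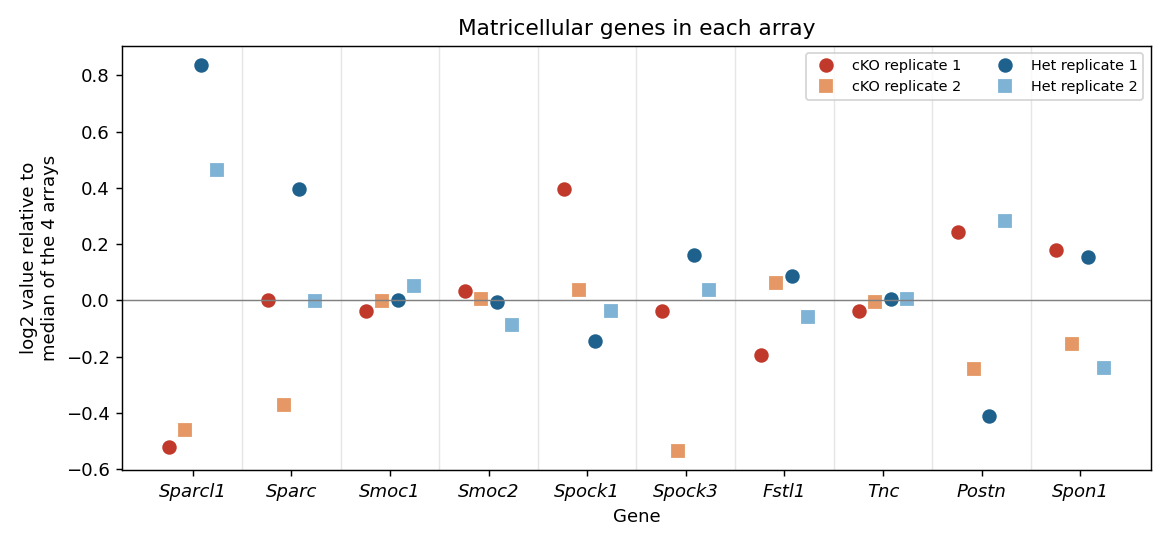
Log2 values of the 10 genes (horizontal axis) relative to the median of the 4 arrays (vertical axis), with 1 point for each array: cKO in red and orange, Het in dark and light blue. Sparcl1 has both cKO points between -0.52 and -0.46 and both Het points between 0.46 and 0.84, while Postn and Spon1 have the points of the groups interleaved.

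Sparc, the founding member of the family, encodes a collagen-binding protein of bone and remodelling connective tissue. It stood at 0.0022 and -0.37 in the cKO arrays and at 0.40 and -0.0022 in the Het arrays. The arrays of cKO replicate 1 and Het replicate 2 gave nearly the same value, so the groups overlapped by a very small margin. Its mean difference was -0.38 ± 0.21, and the arrays of each group were as far apart, 0.37 in cKO and 0.40 in Het. Without Het replicate 1 the difference of Sparc was -0.18, and without cKO replicate 2 it was -0.20.

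The testican genes Spock1 and Spock3, which encode secreted proteoglycans of the family that are abundant in brain, went in opposite directions. Spock3 stood at -0.04 and -0.54 in the cKO arrays and at 0.16 and 0.04 in the Het arrays. Both cKO arrays were lower, cKO replicate 2 by far the more. Its difference was -0.39 ± 0.20, against a gap of 0.50 between the cKO arrays, and it was -0.14 without cKO replicate 2. Spock1 stood at 0.40 and 0.04 in the cKO arrays and at -0.14 and -0.04 in the Het arrays. Here cKO replicate 1 was the high array, and the groups again did not overlap. The Spock1 difference was 0.31 ± 0.15, and it was 0.13 without cKO replicate 1. The difference of each testican gene thus rested largely on a different cKO array.

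The remaining SPARC family genes differed little. Smoc1, whose product antagonises BMP signals in frog embryos and is needed for eye and limb development in mice, stood at -0.04 and -0.0024 in the cKO arrays and at 0.0024 and 0.05 in the Het arrays. Its groups were separated only in that the nearest arrays of each, cKO replicate 2 and Het replicate 1, were 0.0048 apart. The difference of Smoc1 was -0.05 ± 0.04. Smoc2, its paralogue, stood at 0.03 and 0.0053 in the cKO arrays and at -0.0053 and -0.09 in the Het arrays, a difference of 0.07 ± 0.05 in the other direction. Fstl1, which encodes a secreted glycoprotein that binds BMP4 in the mouse lung, stood at -0.19 and 0.06 in the cKO arrays and at 0.09 and -0.06 in the Het arrays. The Fstl1 groups overlapped, with a difference of -0.08 ± 0.12 that turned to 0.05 without cKO replicate 1.

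The 3 genes outside the SPARC family, like every other member but Sparcl1, had group differences smaller than the larger gap between arrays of a group. Tnc, the gene of tenascin C, a ligand of the integrin alpha 9 used in the sort, stood at -0.04 and -0.0039 in the cKO arrays and at 0.0050 and 0.0039 in the Het arrays. All 4 arrays lay within 0.04 of each other, at the 9.38th percentile of the range over all genes, and the difference was -0.03 ± 0.04. Postn encodes periostin, which binds tenascin C and collagen and promotes collagen crosslinking, and it varied widely between arrays. It stood at 0.24 and -0.24 in the cKO arrays and at -0.41 and 0.28 in the Het arrays. Het replicate 1 was the lowest array and Het replicate 2 the highest, 0.69 apart, so that the groups overlapped throughout. Its difference of 0.06 ± 0.32 became -0.28 without Het replicate 1 and 0.41 without Het replicate 2. Spon1, the gene of F-spondin, a floor plate protein that guides axons, stood at 0.18 and -0.16 in the cKO arrays and at 0.16 and -0.24 in the Het arrays. For Spon1 both replicates 1 were high and both replicates 2 were low, and the group difference was 0.05 ± 0.20. It turned to -0.14 without Het replicate 2 and to -0.11 without cKO replicate 1.

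**Figure D2:**
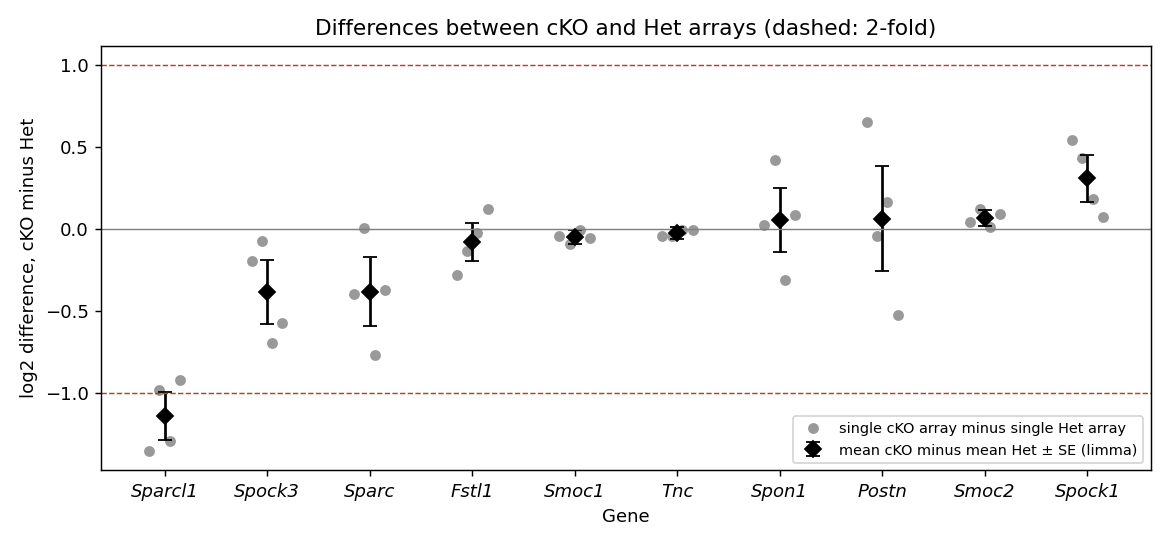
Log2 differences, cKO minus Het (vertical axis), for the 10 genes (horizontal axis), ordered by difference. Diamonds with bars are the mean difference ± SE of the limma fit with 2 arrays per group, and grey points are the 4 single-array pairings. All 4 pairings of Sparcl1 lie between -1.36 and -0.92, and those of Postn run from -0.53 to 0.65.

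Across the 10 genes, 4 were lower in both cKO arrays than in both Het arrays (Sparcl1, Spock3, Smoc1 and Tnc), 2 were higher (Spock1 and Smoc2) and 4 overlapped. Over all genes, 15.6% were lower with separated groups and 17.8% were higher. The median difference of the 10 genes was -0.04, and that of all genes was 0.0034. In 9 of the 10, every one but Sparcl1, the larger of the gaps within a group exceeded the difference between the groups. The share of all genes with such a gap was not computed, so this count does not set the members apart. Sparcl1 was chosen for its difference. Over all genes, 0 of 19938 (0%) passed limma's adjusted test, so no member was called. Sox2 came nearest (adjusted p = 0.345, limma). Of the 19938 genes, 1053 had an unadjusted p under 0.05, a cutoff that a share of 0.05 would pass on average if no gene differed.

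**Figure D3:**
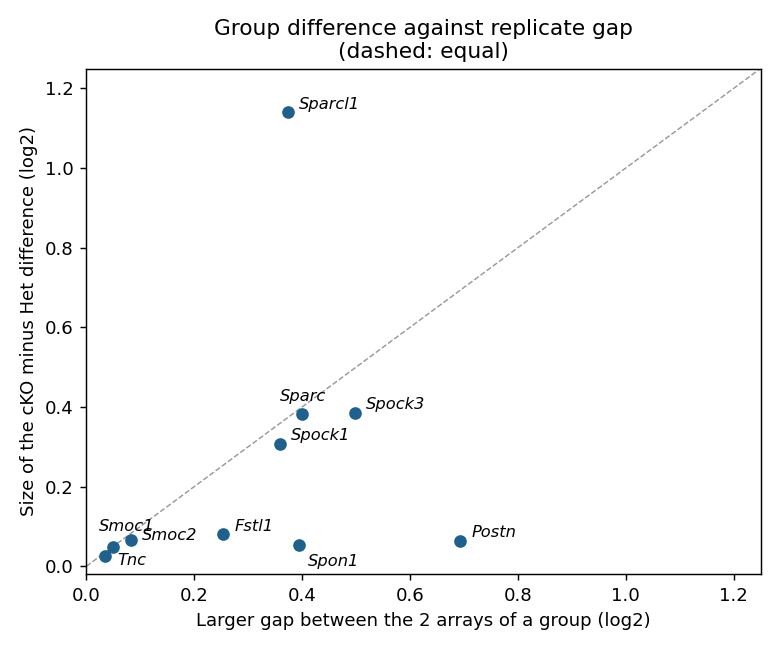
Size of the difference between the group means (vertical axis, log2) against the larger of the 2 gaps between arrays of the same group (horizontal axis, log2), with 1 point per gene and a dashed line where both are equal. Sparcl1, at a difference of 1.14 in size and a gap of 0.37, is the 1 gene above the line and was chosen for its difference.

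Likeness between profiles was measured as the Euclidean distance over the 4 arrays, where a small distance can also mean that both genes hardly varied. Among the 10 genes, Sparc and Spock3 were nearest to each other, at 0.29, and Smoc1 and Tnc, both nearly flat, at 0.05. The nearest of the others to Sparcl1 was Sparc, at 0.83, and 360 genes outside the set were nearer to Sparcl1 than that. The 5 nearest of all genes were Meg3, an imprinted noncoding RNA gene, Id3, a target of BMP signals, Ier3, an immediate early gene, the Y-linked Kdm5d, and Fis1, a gene of mitochondrial fission. Meg3 stood at -0.47 and -0.47 in the cKO arrays and at 0.57 and 0.47 in the Het arrays, at a distance of 0.27 from Sparcl1. Kdm5d stood at -0.27 and -0.34 in the cKO arrays and at 0.63 and 0.27 in the Het arrays, at a distance of 0.40. All 5 had both cKO arrays below both Het arrays, with Het replicate 1 the highest array.

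The genes beside Sparcl1 on chromosome 5 did not share its pattern. In the GRCm38.p6 gene table, the measured genes on one side are Hsd17b13, Hsd17b11 and Nudt9, and those on the other side are Dspp, Dmp1 and Ibsp, which encode matrix proteins of bone and teeth. The groups overlapped for all 6, and their differences lay between -0.02 for Nudt9 and 0.03 for Hsd17b13.

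Other matricellular genes, 25 measured of 27 listed, were lower with separated groups in 5 cases (20%) and higher in 5 (20%), and none passed limma's test. With 1 array left out, 7 to 11 of the 25 were lower with separated groups, beside 6069 to 6660 of all 19938 genes. The count of all genes was 3120 with no array left out, so the rise was not particular to this list. The median difference of the 25 genes was -0.02. Efemp1, which encodes a fibulin, stood at -0.26 and -0.16 in the cKO arrays and at 0.28 and 0.16 in the Het arrays, a difference of -0.43 ± 0.07 (adjusted p = 0.897, limma). Fbln1, another fibulin gene, differed by -0.38 ± 0.14 (adjusted p = 0.937, limma), and by -0.20 without Het replicate 1. Thbs2, the gene of the anti-angiogenic thrombospondin 2, differed by -0.36 ± 0.10 (adjusted p = 0.936, limma), and by -0.24 without cKO replicate 2. Ccn4, a WNT-induced gene of the CCN family, was at -0.13 ± 0.06, or -0.07 with cKO replicate 1 left out. The separated genes that were higher, Tnn, Fbln7, Ccn3, Ccn6 and Fstl5, had differences between 0.02 and 0.10. Ccn2, which encodes connective tissue growth factor, had the largest positive difference at 0.30 ± 0.27, with cKO replicate 2 at 0.66 and cKO replicate 1 at -0.06, and its groups overlapped.

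Receptors, matrix ligands and proteases of these proteins, 27 measured of 28 listed, were likewise divided, with 5 lower and 4 higher with separated groups (18.5% and 14.8%), a median difference of 0.0016 and none passing limma's test. With 1 array left out, 8 to 11 were lower with separated groups, beside 6069 to 6660 of all 19938 genes. Among the genes of fibrillar collagens, which SPARC binds, Col1a1, Col1a2 and Col3a1 were lower in both cKO arrays and Col5a1 was higher in both, by 0.04 ± 0.04. Col1a2 differed by -0.37 ± 0.21, Col1a1 by -0.31 ± 0.10 and Col3a1 by -0.27 ± 0.11 (adjusted p = 0.979, 0.936 and 0.944, limma). Single arrays carried much of this, since without cKO replicate 2 Col1a2 was at -0.11 and Col3a1 at -0.13, and without Het replicate 2 Col1a1 was at -0.18. Col1a2 stood at -8.0e-04 and -0.52 in the cKO arrays and at 0.22 and 8.0e-04 in the Het arrays. Its groups were separated by a very small margin, with cKO replicate 1 minus Het replicate 2 at -0.0016. The order was like that of Sparc, in which cKO replicate 2 was lowest and Het replicate 1 highest. Itga9, the tenascin C receptor gene used in the sort, stood at -0.21 and 0.06 in the cKO arrays and at 0.19 and -0.06 in the Het arrays, with a difference of -0.14 ± 0.14. Itga8, another integrin gene of matrix ligands, had the largest positive difference of this list, 0.38 ± 0.17 (adjusted p = 0.958, limma), which was 0.19 without Het replicate 2. Mmp3, the stromelysin gene, whose product can cleave hevin, stood at 0.12 and 0.11 in the cKO arrays and at -0.11 and -0.15 in the Het arrays, a difference of 0.24 ± 0.04 (adjusted p = 0.897, limma).

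**Figure D4:**
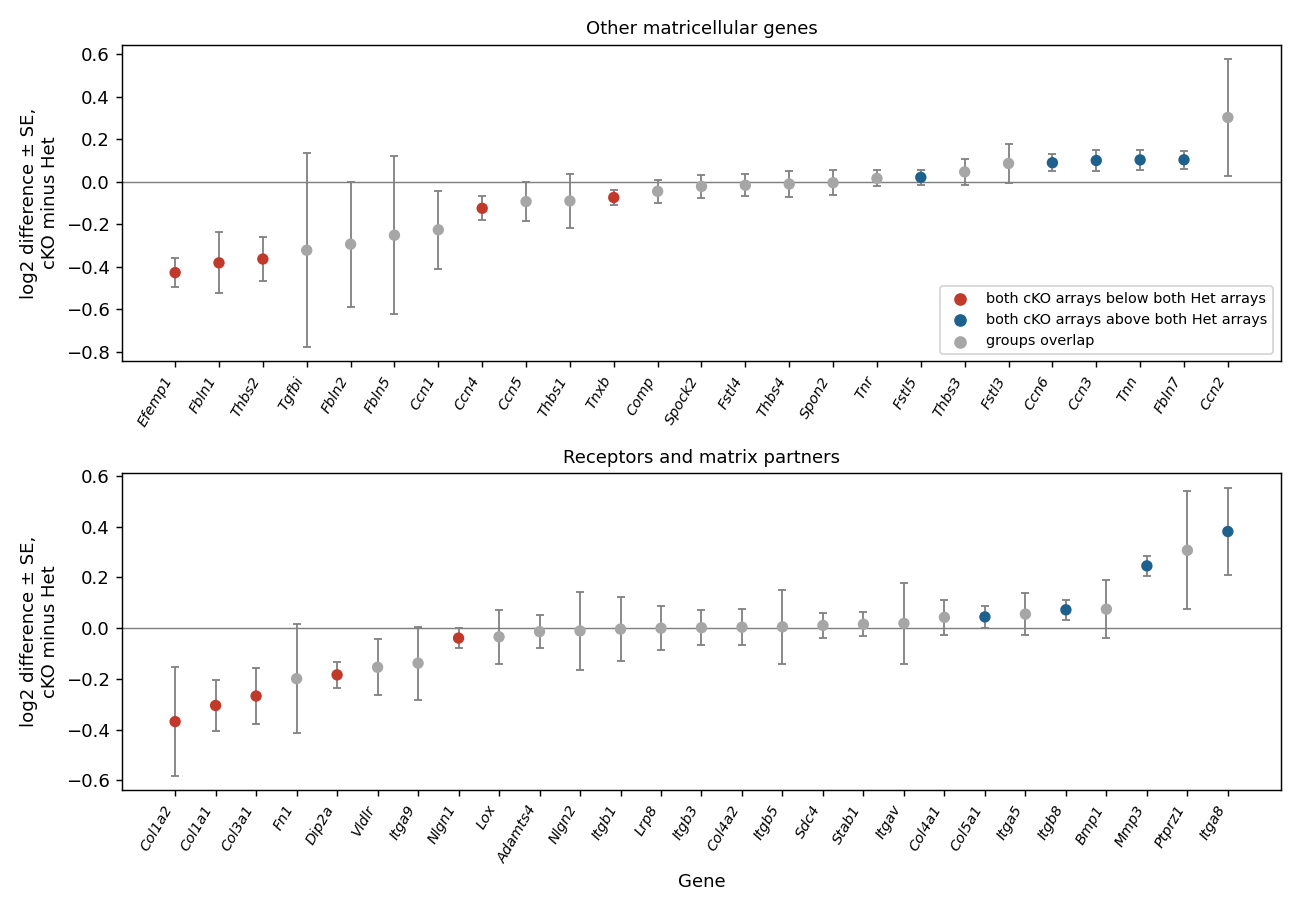
Log2 differences, cKO minus Het, with the SE of the limma fit (2 arrays per group, vertical axis) for the 25 other matricellular genes and the 27 receptors and matrix partners (horizontal axes), ordered by difference. Red marks genes with both cKO arrays below both Het arrays, blue the reverse and grey overlapping groups; Efemp1 is lowest at -0.43 and Itga8 highest at 0.38.

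Markers of other cells that express Sparcl1 or the other matricellular genes are set beside these values. Over all genes, 15.6% were lower and 17.8% higher with separated groups. Blood vessels are a known site of Sparcl1. Of 9 pericyte markers, 0 were lower and 1 (11.1%) was higher with separated groups. The median of the list stayed between -0.01 and 0.02 in the 4 arrays. Of 15 endothelial markers, 3 (20%) were lower and 4 (26.7%) higher with separated groups, with array medians between -0.01 and 0.01. Of the lower ones, Eng differed by -0.35 ± 0.15 (-0.16 without Het replicate 1) and Esam by -0.05 ± 0.04, and Pecam1 was among the higher ones at 0.07 ± 0.04. Of 11 Schwann and glial markers, 3 (27.3%) were lower and 1 (9.1%) higher with separated groups. The medians of this list were -0.0067 and -0.09 in the cKO arrays and 0.07 and 0.01 in the Het arrays. Single genes of this list differed far more than its median. Egr2, a transcription factor gene of myelinating Schwann cells and of the immediate early response, stood at -0.48 and -1.05 in the cKO arrays and at 0.48 and 0.69 in the Het arrays, a difference of -1.35 ± 0.23 (adjusted p = 0.897, limma). Fabp7, a fatty acid binding protein gene of glia, stood at -0.36 and -0.55 in the cKO arrays and at 0.36 and 0.38 in the Het arrays, a difference of -0.82 ± 0.08 (adjusted p = 0.897, limma). Without cKO replicate 2 the difference was -1.07 for Egr2 and -0.72 for Fabp7. With separated groups, leaving out an array could not turn the sign of either. The other separated genes of the list were Erbb3, at -0.12 ± 0.06 (-0.07 without cKO replicate 2), and Gfra3, at 0.09 ± 0.06 (0.03 without Het replicate 1). Dermal fibroblast markers, a neighbouring cell type rich in Sparc and collagens, had lower mean values in 14 of 15 cases, against 47.7% of all genes. With separated groups 6 of the 15 (40%) were lower and 1 (6.7%) was higher, against the 15.6% and 17.8% of all genes given above. Of the lower ones, Col1a1, Col1a2, Col3a1 and Fbln1 were also counted in the lists of matrix partners and other matricellular genes. Col1a2 was separated only by the very small margin given above. Lum, the gene of lumican, differed by -0.54 ± 0.12 (adjusted p = 0.934, limma). The list had medians of -0.03 and -0.09 in the cKO arrays and 0.07 and 0.09 in the Het arrays. Of 12 dermal sheath and smooth muscle markers, 3 (25%) were lower and 1 (8.3%) higher with separated groups. The lower ones were Tagln, Myocd and Des, at differences between -0.14 and -0.07. Keratinocyte markers also had lower mean values in most cases, 12 of 14, against 47.7% of all genes. With separated groups 4 (28.6%) were lower and 0 higher, against the same 15.6% and 17.8% of all genes. The lower ones were led by Itga6 at -0.52 ± 0.17 (-0.31 without cKO replicate 1) and Krt10 at -0.33 ± 0.11 (-0.18 without Het replicate 2). The keratinocyte list had its highest median, 0.18, in Het replicate 2, as had the 10 melanocyte markers, at 0.14, of which all overlapped. Of 14 immune markers, 3 were lower and 3 higher with separated groups (21.4% each), and all differences lay between -0.07 and 0.06. The part of these cells in the values of Sparcl1 and Sparc was not tested, and because the table holds no level, it cannot be said which markers were at background. For the same reason, dermal papilla markers show no purity of the sort. Of 19 measured, 6 (31.6%) were lower and 3 (15.8%) higher with separated groups. The 6 include Sox2 itself, the gene that was knocked out. Vcan, at -0.77 ± 0.26, and Rspo3, at -0.66 ± 0.13, were also among the 6. Wif1 was among the 3 higher ones, at 0.75 ± 0.22 (0.49 without cKO replicate 2).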

How the data were processed

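The deposited table held log2 values of 4 arrays, which the authors had made with RMA, per the submitters' processing notes. RNA was amplified before labelling, per the labels' protocols. Neither the log base nor the centring is stated, and log2 was assumed, as RMA gives it. Over all 28853 probe sets the median of the 4 arrays was 0 within 5e-07, so no filter on expression was possible.

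The platform annotation named 1 gene for 21789 probe sets, several for 1621 and none for 5443. Probe sets of several or no genes were left out, and values were averaged per gene (19938 genes, 999 with more than 1 probe set). The comparison used limma 3.58.1 in R 4.3.3 (lmFit, eBayes with 1.52 prior degrees of freedom, two-sided), with Benjamini-Hochberg adjustment over all genes. The fit was tested on simulated data. The exact permutation test of 2 against 2 arrays cannot give a p below 0.333 and was not used. The members, gene lists and rules were chosen with earlier results of these data known. Genes outside the 10 were named from the 4 largest separated differences of each list, the 5 profiles nearest to Sparcl1 and its 3 measured neighbours on each side. Col5a1, Itga9, Mmp3, Ccn2, Tnn, Fbln7, Ccn3, Ccn6 and Fstl5 were added after their values were seen. Alternatives were array centring, a robust prior, an unmoderated statistic, a replicate block, the most variable probe set per gene, a filter on SD and leaving out each array. Plots used matplotlib 3.10.9 (Python 3.11.15).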

Additional observations from a re-analysis of the deposited data

How the results depend on the processing

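The difference of Sparcl1 lay between -1.33 (without Het replicate 2) and -0.95 (without Het replicate 1) in the alternatives that recomputed it. Its groups did not overlap, so leaving out an array could change its size but not turn its sign. The count of the 10 genes lower with separated groups was 4 with each array centred and 5 to 6 with an array left out, where 3 arrays separate more easily. Of the 9 other genes, Fstl1, Postn and Spon1, whose groups overlapped, turned sign when 1 array was left out. The count of all genes lower with separated groups was then between 6069 and 6660, and that of genes at least 2-fold apart with separated groups between 26 and 61. With only genes above the median SD over the 4 arrays, which favours genes that differ between groups, 116 genes passed limma's test, against 0 over all genes, and 2024 were lower with separated groups because fewer genes remained. The fit with the replicate number as a block passed 0 genes. It left the Sparcl1 difference at -1.14, which a block over balanced arrays cannot change. Deviations of same-numbered arrays correlated at 0.311 over probe sets, and the labels do not say what a shared number means, so the numbers were not taken as pairs. The robust prior and the unmoderated statistic also passed 0 genes. With 2 arrays per group and no expression level, signal over background could not be assessed.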
